A study of Homo sapiens with 9 samples.

Results

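Melanosome-laden keratinocytes were compared with control keratinocytes across all expressed genes. Both are HaCaT, an established keratinocyte line that arose from human skin, and melanosomes are the pigment organelles that keratinocytes receive from melanocytes. The comparison uses 6 of the 9 libraries of the study: 3 of control cells (Blank, labelled WT) and 3 of cells loaded with melanosomes. The other 3 libraries, of loaded cells that also received glabridin (an isoflavan of licorice), entered the fit as well, where they add to the spread between libraries, the filter on low counts and the scaling. Dose, exposure time and the source of the organelles were not given in the sources used here. Nor is it said whether replicates were separate cultures, so the tests speak for these libraries and part of their spread could be technical.

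In the epidermis, keratinocytes engulf melanosomes, gather them above the nucleus and slowly digest them. Basal keratinocytes are known by the keratin pair KRT5 and KRT14 and by the transcription factor p63. As they mature they turn to suprabasal keratins, tight junctions and cornified envelope proteins. Notch, EGF receptor and Hippo signals balance growth against maturation, and interferon and antimicrobial programs guard the surface.

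Every gene was placed by its level in the 3 control libraries, in CPM, which relate a count to the scaled size of its library. Of 20263 genes in the count table, 11588 averaged at least 1 CPM in control and are called expressed. Another 5912 had no more than 3 counts in any control library and are called absent, and the remaining 2763 had traces. Expressed genes made up 99.918% of control counts and 99.079% ± 0.0104 (SD, n = 3) of melanosome counts. Trace genes took 0.0791% of control and 0.547% of melanosome counts, and absent genes 0.00260% and 0.374%. No expressed gene dropped out: 0 of the 11588 had 3 counts or fewer in each melanosome library. Library totals ran from 39653425 to 46690787 counts. The biological coefficient of variation was 3.57% among control, 6.55% among melanosome and 17.6% among glabridin libraries, all of which the fit pooled.

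**Figure D1:**
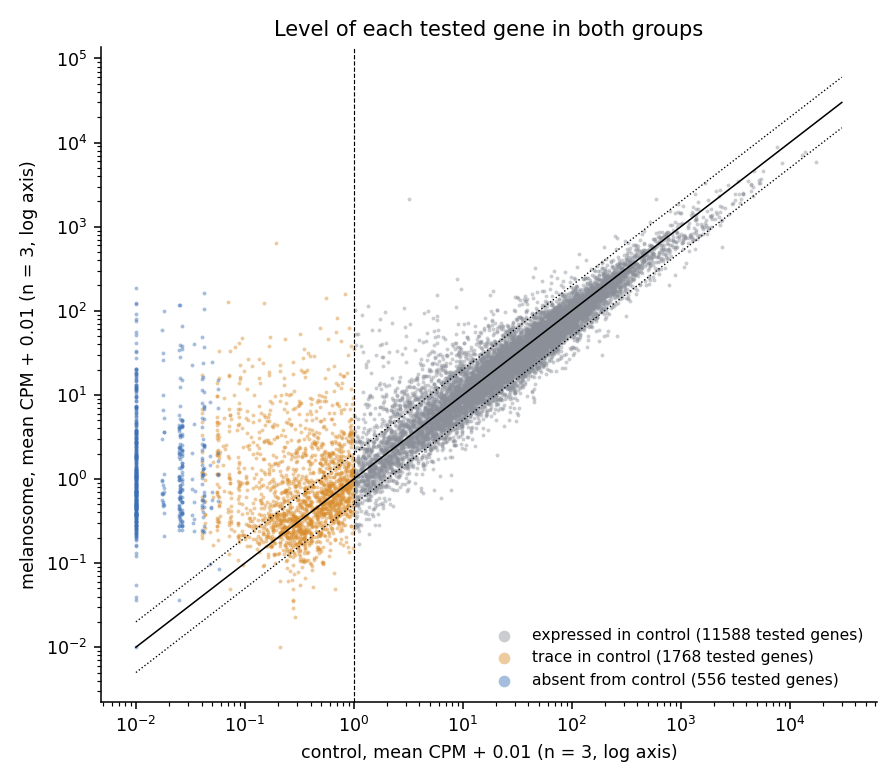
Mean level of each tested gene in control (horizontal axis) and melanosome libraries (vertical axis), in CPM on log axes, with 3 libraries a group and colours for the class of the gene in control. Most of the 11588 expressed genes lie along the line of equal levels, while the 556 tested genes absent from control stand at the left edge.

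Small differences were frequent among expressed genes and large ones were not. Called here means an adjusted p under 0.05 in edgeR's quasi-likelihood test, with Benjamini-Hochberg adjustment over all 13912 tested genes. By that rule 7251 of the 11588 expressed genes were called (62.6%), of which 2810 rose (24.2%) and 4441 fell (38.3%). Changes of at least 2-fold numbered 676 upward (5.83%) and 682 downward (5.89%). Libraries of the groups did not overlap in 30.4% of expressed genes on the higher side and in 47.4% on the lower side. Over all tested genes 62.5% were called, 29.5% rising and 33% falling, with 13.8% and 5.83% past 2-fold, and libraries apart in 35% and 41.1%. That balance also turned: 47.18% of calls were higher on the TMM scale, 52.47% to 54.90% with DESeq2, with RLE, upper-quartile or control-expressed factors, with the 2 groups alone or without glabridin replicate 1, 50.75% against a fold of 1.2 and 65.97% with library totals alone. The median log2 change of expressed genes was -0.13. Of 1768 tested trace genes 741 rose and 150 fell. Such genes can pass the filter on low counts through the melanosome or glabridin libraries alone, so their rises below are description only. The split between directions depended on the scale: with library totals alone, 4107 expressed genes rose and 2690 fell (60.42% of calls higher, against 38.75%), since log2 changes moved up by a median of 0.17. A gene that rose or fell from one level to another is given by its means over 3 libraries a group. Directions below hold on the TMM scale, and lists whose balance turned on another scale are named as such where they are described. Of the 183 called genes named below, F2RL1, IL18, NARS1, PTGS2, RB1, RFC1, TP63 and YAP1 were not called with library totals alone. Against a fold of 1.2, 13 of the 183 lost their call. The calls of CCN1, KRT6A, NARS1, PKP1, PTGS2, RB1 and RPL26L1 were lost without at least 1 single library, and that of PKP1 also with a replicate block.

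Identity markers of keratinocytes stayed high in both groups. The 12 keratinocyte markers summed to 13904 to 13983 CPM in control and 11825 to 12653 CPM in melanosome libraries, and 3 of them rose while 7 fell. KRT5 stood at 5269, 5181 and 5157 CPM in the control libraries and at 3355, 3609 and 3674 CPM in the melanosome libraries (log2 fold change -0.55 ± 0.10 SE, edgeR adjusted p = 0.00064). KRT14 stood at 2748, 2731 and 2715 CPM against 2961, 3219 and 3214 CPM, and its difference did not pass (log2 fold change 0.20 ± 0.17 SE, edgeR adjusted p = 0.34). The groups were apart for both genes, KRT5 lower and KRT14 higher in melanosome libraries. TP63, which encodes p63, fell from 348 to 254 CPM (log2 fold change -0.45 ± 0.12 SE).

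Markers of pigment cells moved in the same libraries. Of 22 melanocyte markers, 7 were expressed in control, 5 were traces and 10 were absent there, and each of those 10 averaged at least 1 CPM in melanosome libraries. Of the 7 expressed markers 6 rose and 1 fell, the latter by a log2 fold change of -1.80. All 22 markers summed to 209 to 221 CPM in control and to 3696 to 3819 CPM in melanosome libraries. PMEL alone averaged 2109 CPM in melanosome libraries, so it weighs heavily in that sum. TYR and KIT were at 0 in every control library. Bulk counts cannot tell fewer or more cells of a type from less or more RNA per cell, and the part of pigment cell transcripts in the results below was not tested. Markers of other cells were also measured: the 14 of neural crest and Schwann cells summed to 270.5 to 286 and 310.4 to 329 CPM, the 9 of fibroblasts to 182 to 189 and 118 to 130.2 CPM, the 7 of endothelium to 41.9 to 43.6 and 38.2 to 44.2 CPM and the 11 of immune cells to 57.3 to 61.5 and 70.1 to 78.2 CPM. In the neural crest and Schwann list, of 2 genes expressed in control 1 fell (ERBB3) and 1 was not called. The trace genes L1CAM and NES went from 0.420 to 29.05 CPM and from 0.346 to 2.31 CPM. Of the list's 10 absent genes 2 averaged at least 1 CPM in melanosome libraries, NCAM1 at 1.61 CPM and 1 that is not reported here by name. The immune genes PTPRC, MS4A1, TYROBP and AIF1 were at 0 in all 6 libraries. The fibroblast gene DCN, which encodes decorin, and the endothelial cadherin gene CDH5 were expressed in control and fell, from 32.0 to 5.77 CPM and from 31.5 to 6.01 CPM, while the endothelial growth factor gene EGFL7 rose from 4.74 to 29.5 CPM.

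The most abundant transcripts of control cells were mostly lower in melanosome libraries. Among 125 genes above 1000 CPM in control, 96 fell (76.8%) and 12 rose (9.60%), with a median log2 change of -0.58. This class shares members with the cytosolic ribosomal protein genes described further on, such as RPS18 (2410 against 1708 CPM). Those 84 genes summed to a mean of 119670 CPM in control, so the falls of the class and of the family are not separate results. Between 100 and 1000 CPM 47.1% of 1945 genes fell, between 10 and 100 CPM 39.8% of 6736, and between 1 and 10 CPM 27.0% of 2782, of which 31.6% rose. Large rises sat at the low end, which follows in part from grouping by the control level, the divisor of the fold. Of the 676 rises past 2-fold 452 were below 10 CPM in control and 1 above 1000 CPM. That gene was PSAP, which encodes prosaposin, the precursor of lysosomal activator proteins, and it rose from 1658 to 3328 CPM. Changes also followed base composition and length across 11584 expressed genes, which are not independent replicates (Spearman rho 0.346 with GC content and -0.252 with transcript length). Among genes of the lowest GC content 53.4% fell, among those of the highest 25.5%. Of the longest transcripts 51.7% fell, of the shortest 25.9%.

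**Figure D2:**
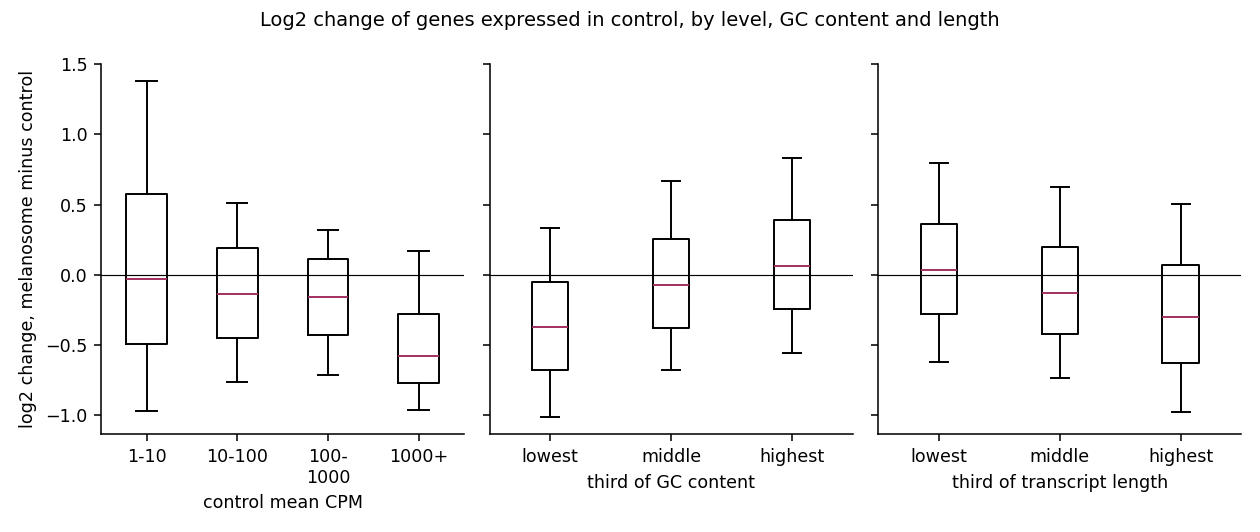
Log2 change (melanosome minus control) of genes expressed in control, by control level in CPM and by 3 equal classes of GC content and of transcript length. Genes above 1000 CPM have a median of -0.58, and medians climb from -0.37 to 0.06 over the classes of GC content.

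The largest rises among expressed genes were of genes that control cells transcribed at a few CPM or less. PMEL, the gene of the melanosome's fibrils, went from 3.20 to 2109 CPM and stood first. FN1, which encodes the matrix protein fibronectin (chromosome 2, 215360440 to 215436172, GRCh38), stood at 1.12, 0.859 and 1.06 CPM in control and at 99.6, 101 and 104.6 CPM in melanosome libraries (log2 fold change 6.64 ± 0.23 SE). SPP1, the gene of the secreted phosphoprotein osteopontin, stood at 0.962, 1.22 and 1.38 CPM against 92.3, 88.9 and 87.4 CPM. For both genes the lowest melanosome library was far above the highest control library. SGK1, a serum- and glucocorticoid-induced kinase gene, rose from 1.92 to 96.8 CPM, and CYGB, the cytoglobin gene, from 1.03 to 53.1 CPM. GPRC5B, an orphan receptor gene, rose from 1.09 to 53.4 CPM. SERPINF1, the gene of the anti-angiogenic factor PEDF, and SERPINE2, a protease inhibitor gene, rose from 1.73 to 79.5 CPM and from 1.70 to 59.8 CPM. ITGA9, an integrin subunit gene, rose from 1.47 to 59.1 CPM and SEMA6A, a transmembrane semaphorin gene, from 1.04 to 39.6 CPM. The list of 12 was completed by ETV5 and DUSP4, described with their pathway.

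The largest falls were of genes with varied roles. KRT1, the first keratin of suprabasal cells, stood at 8.55, 7.62 and 7.37 CPM in control and at 0.368, 0.938 and 0.883 CPM in melanosome libraries (log2 fold change -3.44 ± 0.26 SE, edgeR adjusted p = 1.24e-06). PIGR, which carries polymeric immunoglobulins across mucosal epithelia, fell from 6.25 to 0.584 CPM. VTCN1, an inhibitory ligand of T cells, fell from 7.76 to 1.10 CPM, and CLIC5, an intracellular channel gene, from 5.46 to 0.730 CPM. These genes were already low in control and were near or under 1 CPM in melanosome libraries. The matrix protease gene ADAMTS5 fell from 1.12 to 0.159 CPM and the cytochrome P450 gene CYP2B6 from 1.69 to 0.275 CPM. HMGN5, a nucleosome-binding protein gene, fell from 4.12 to 0.711 CPM, PLEKHS1 from 1.35 to 0.214 CPM and CCDC146 from 4.28 to 0.675 CPM. DMBT1, CYP1B1 and AKAP9 belong to groups described further on.

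**Figure D3:**
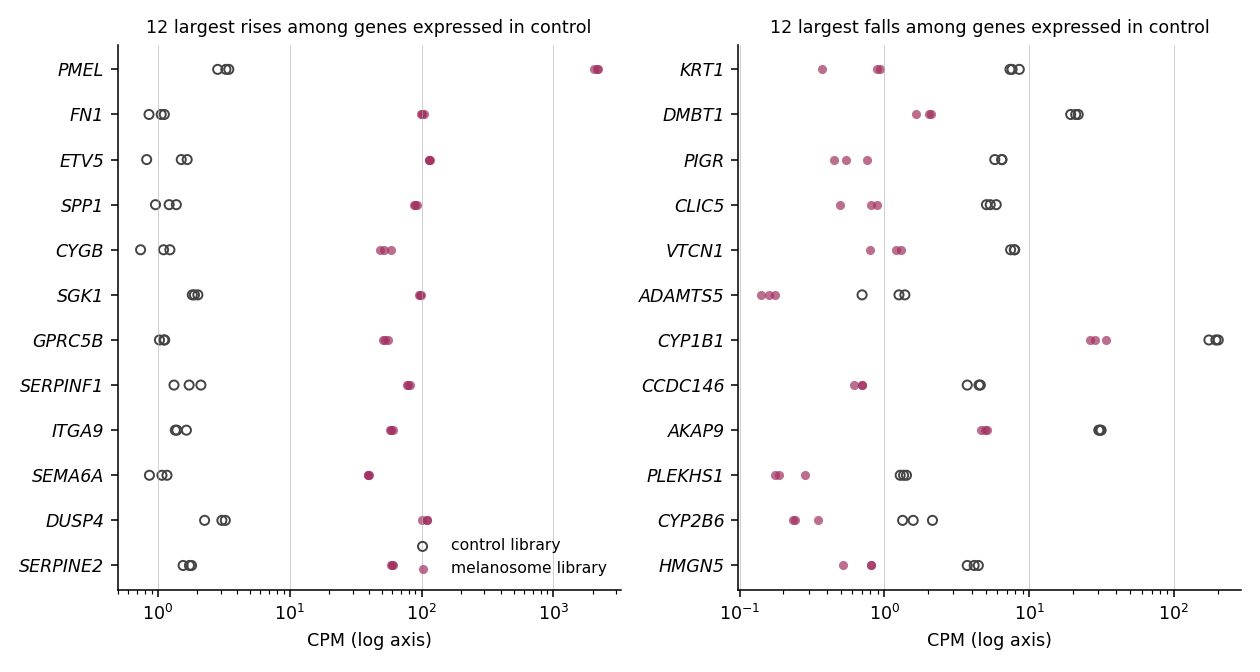
CPM on a log axis of the 12 strongest rises and 12 strongest falls of called genes expressed in control whose libraries do not overlap, with 1 point per library (3 control, 3 melanosome). FN1 lies near 1 CPM in control and near 100 CPM in melanosome libraries, and the groups stand apart for every gene plotted.

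Gene lists were read against the shares over all expressed genes. The lists were chosen with earlier results of these data known, so the shares within a list describe it and are not a test. With the trends of GC content and length subtracted some list medians moved toward 0. Others moved away from it, as that of simple and mucosal keratins did, from -0.47 to -0.65. Over the 68 lists with 3 or more expressed members, the balance between rising and falling members turned under library totals alone for 15, and under at least 1 of 4 other scalings for 11.

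**Figure D4:**
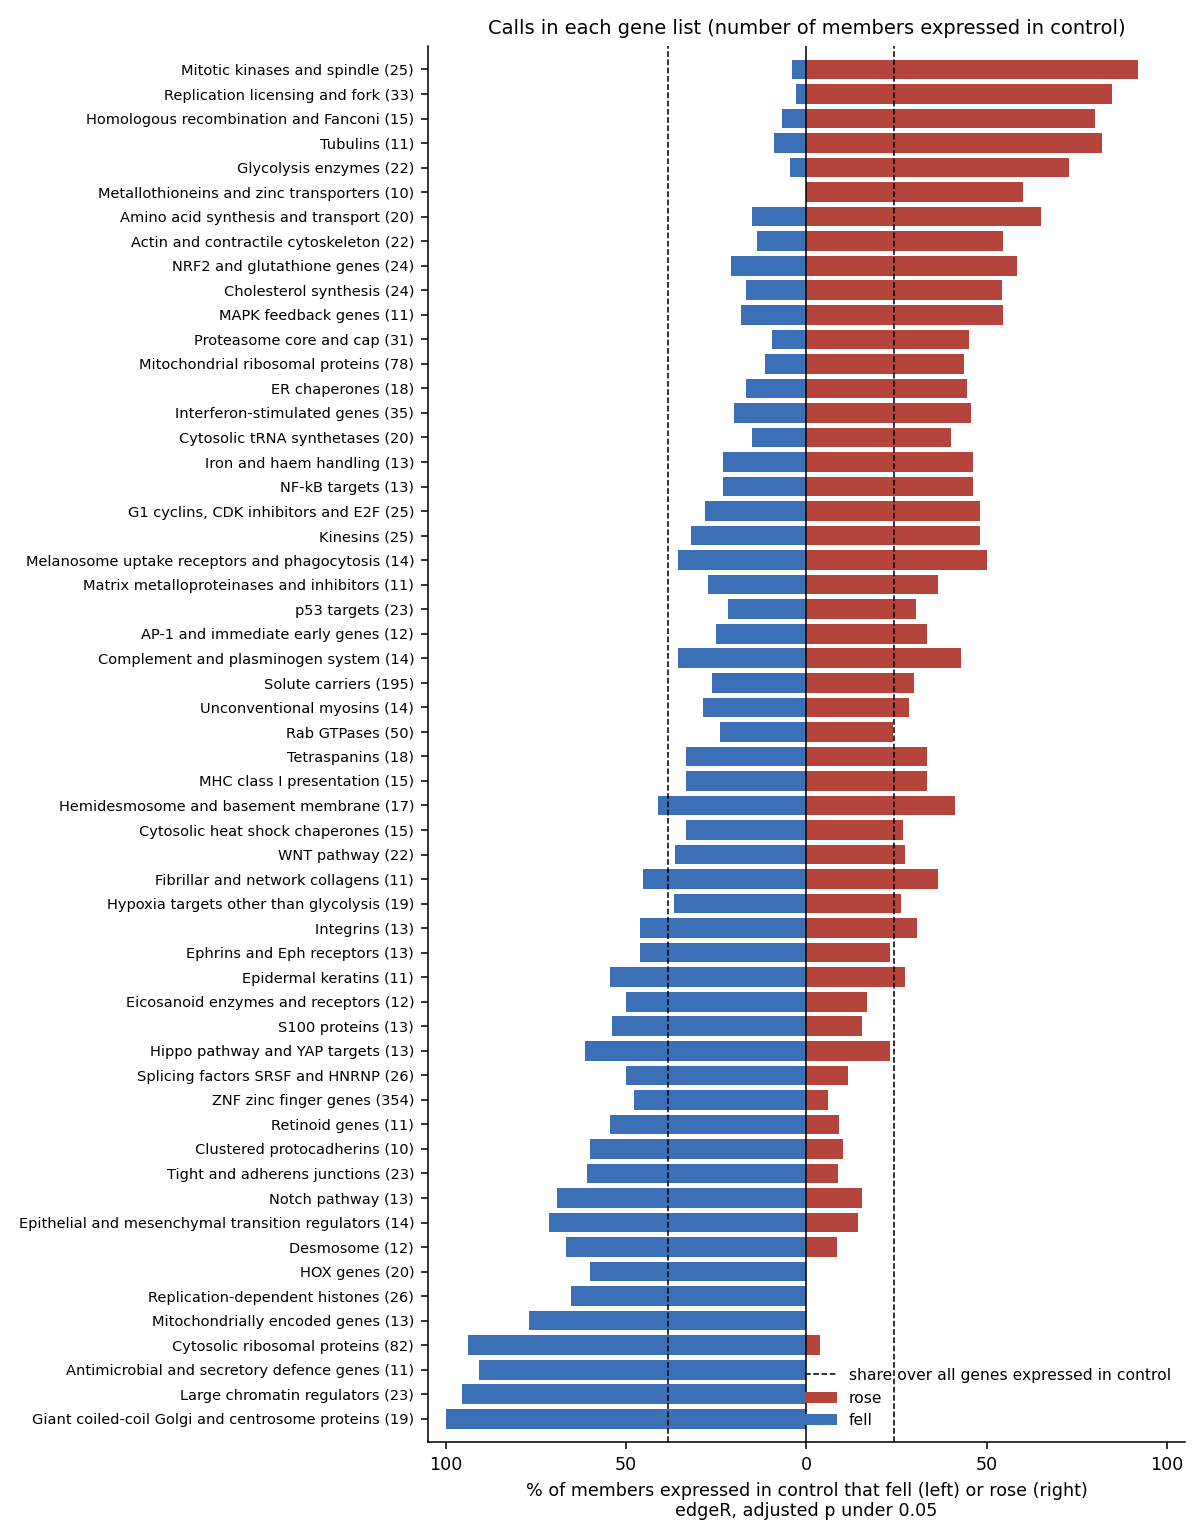
Share of each gene list's expressed members that fell or rose by edgeR at an adjusted p under 0.05, beside the shares over all expressed genes, 38.3% and 24.2%. In the mitotic list 92% of members rose and in that of giant coiled-coil proteins 100% fell. The lists were chosen with earlier results of these data known. The balance of 15 lists, Rab GTPases and MHC class I genes among them, turns with library totals alone.

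The mucosal keratin genes KRT13 and KRT4 were lower in melanosome libraries, several simple keratins did not pass the test, and those of the epidermis went in both directions. KRT13, a suprabasal keratin of mucosal epithelia (chromosome 17, 41500981 to 41505705), stood at 17734, 17523 and 17366 CPM in control and at 5475, 6007 and 6081 CPM in melanosome libraries (log2 fold change -1.58 ± 0.07 SE, edgeR adjusted p = 1.60e-08). Its partner KRT4 stood at 2409.8, 2404 and 2403 CPM against 544, 577 and 589.8 CPM. For both keratins every melanosome library was under every control library by more than 2-fold. KRT19 fell from 4387 to 3167 CPM, whereas KRT7 (1182 against 1109 CPM, edgeR adjusted p = 0.184), KRT8 (667 against 682 CPM, edgeR adjusted p = 0.71) and KRT18 (175 against 158 CPM, edgeR adjusted p = 0.183) did not pass. In sum 4 of 7 expressed simple and mucosal keratins fell and 0 rose, with a median log2 change of -0.47. Of 11 epidermal keratins 6 fell and 3 rose (median -0.35). Besides KRT1 and KRT5 the falls included KRT15 of basal and follicle cells, from 5186 to 3318 CPM. The rises were of the wound keratins KRT16, from 4.13 to 10.9 CPM, and KRT6A, from 616 to 761 CPM, and of KRT80, from 25.6 to 44.6 CPM. KRT6A has near-identical copies, so its value is uncertain.

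Desmosomes, tight and adherens junctions and the cornified envelope were mostly lower. Of 12 desmosome genes, which weld neighbouring keratinocytes together, 8 fell and 1 rose. Their median log2 change was -0.46, or -0.16 with the trends of GC content and length subtracted. DSC3, a desmosomal cadherin gene, stood at 339.6, 349 and 343 CPM in control and at 188, 164 and 159.6 CPM in melanosome libraries, and DSP, which anchors keratin filaments, fell from 929 to 580.0 CPM. The riser was PKP1, a plaque protein gene, from 651 to 729 CPM. Among 23 tight and adherens junction genes 14 fell and 2 rose (median -0.28). CLDN1, a claudin that seals the epidermal barrier, stood at 1074, 1057 and 1082 CPM in control and at 338, 332 and 326 CPM in melanosome libraries. CTNNB1, which encodes beta-catenin, stood at 213, 204 and 203 CPM against 405, 405 and 418 CPM. The groups were thus apart in opposite directions for these genes. Of 7 expressed gap junction genes, which couple cells directly, 2 rose and 1 fell (median 0.08), among them GJB2 from 1.63 to 3.29 CPM and GJB5 from 72.6 to 57.2 CPM. Of 8 expressed cornified envelope genes 6 fell and 0 rose (median -0.38), with IVL, the involucrin gene, at 116, 111 and 116 CPM in control and 31.6, 33.8 and 36.0 CPM in melanosome libraries. In the S100 family 7 of 13 fell and 2 rose: S100A7 (psoriasin) fell from 15.4 to 3.99 CPM and S100A10, the annexin A2 partner, rose from 361 to 601 CPM.

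Genes of adhesion to the matrix went up or down by subunit. Of 13 integrin genes 6 fell (46.2%) and 4 rose (30.8%), beside 38.3% and 24.2% over all expressed genes. Their median was -0.17 and became 0.13 with the trends of GC content and length subtracted. The collagen receptor subunit ITGA2 fell from 329 to 143 CPM and ITGB8 from 24.9 to 9.81 CPM, while the fibronectin receptor subunit ITGA5 rose from 33.6 to 84.1 CPM. Hemidesmosome and basement membrane genes were called 7 up and 7 down of 17, and 10 up and 6 down with library totals alone. ITGB4, the hemidesmosome's integrin, fell from 1215 to 789 CPM and its plakin DST from 48.96 to 25.9 CPM. COL17A1, the hemidesmosome's collagen, rose from 389 to 612 CPM and COL4A2, a basement membrane collagen gene, from 2.11 to 13.2 CPM.

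Genes known for particle uptake were also split. Of 14 expressed members 7 rose and 5 fell (median 0.22). MFGE8, which bridges phosphatidylserine on cargo to integrins, stood at 11.3, 11.4 and 10.8 CPM in control and at 69.9, 72.5 and 74.7 CPM in melanosome libraries. TLR3, the sensor of double-stranded RNA, fell from 27.3 to 11.6 CPM. The small GTPase genes RAC1 and CDC42, which drive engulfment, fell from 563 to 451 CPM and from 255 to 206 CPM. F2RL1, a protease-activated receptor known for its part in keratinocyte phagocytosis, fell from 59.6 to 48.5 CPM.

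Epithelial regulators were lower, and several mesenchymal ones were higher from traces. In the list of transition regulators 10 of 14 expressed genes fell and 2 rose (median -0.48). ELF3, an epithelial ETS factor, stood at 1402, 1428 and 1382 CPM in control and at 683, 725 and 732 CPM in melanosome libraries, and the groups did not overlap. GRHL2 and OVOL2, which maintain epithelial identity, fell from 78.3 to 41.6 CPM and from 15.8 to 8.57 CPM. The risers were FN1 and SNAI2, the latter from 31.8 to 41.8 CPM. Among the list's trace genes VIM, the vimentin gene, went from 0.182 to 641 CPM, ZEB2 from 0.200 to 8.37 CPM and TWIST1 from 0.439 to 6.44 CPM, while ZEB1 went from 0.536 to 0.241 CPM without passing. VIM and ZEB2 are among the genes that pigment cells also transcribe. The cells of origin were not tested for any riser of the list, FN1, SNAI2 and TWIST1 included.

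Notch genes and EGF receptor genes were lower on balance. The Notch list counted 9 falls and 2 rises among 13 expressed genes (median -0.59). The receptor gene NOTCH1 stood at 374, 399 and 379.8 CPM in control and at 150.1, 156 and 168 CPM in melanosome libraries (log2 fold change -1.28 ± 0.17 SE). The ligand genes JAG1 and JAG2 fell from 302 to 194 CPM and from 301 to 173 CPM. Of the targets, HES4 fell from 46.1 to 30.5 CPM, HEY1 rose from 12.5 to 34.4 CPM and HES1 did not pass (121 against 109 CPM, edgeR adjusted p = 0.122). Receptor genes of the EGF family all fell: EGFR from 499 to 309 CPM, ERBB2 from 278 to 187 CPM, ERBB3 from 89.8 to 60.5 CPM and ERBB4 from 2.32 to 1.23 CPM. Of their ligands AREG rose from 8.65 to 19.3 CPM and HBEGF from 14.5 to 21.5 CPM. The EGF family list had a median of -0.49, or -0.18 with the trends of GC content and length subtracted. In the Hippo list 8 of 13 fell and 3 rose, but with library totals alone 4 fell and 4 rose. YAP1, its transcriptional effector, fell from 204 to 130.0 CPM, and the target CCN1 rose from 13.4 to 19.9 CPM (edgeR adjusted p = 0.0477). In the WNT list 6 of 22 rose (27.3%) and 8 fell (36.4%), near the 24.2% and 38.3% over all expressed genes. That balance turned or tied under all 5 other scalings (9 and 5 with library totals alone). Of the WNT list's 8 trace genes 7 rose, beside 741 of all 1768 tested trace genes. The list's ligand gene WNT10A stood at 609, 611 and 629 CPM against 300.4, 327 and 326 CPM.

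Positional and retinoid genes were lower too. Of 20 expressed HOX genes 12 fell and 0 rose (median -0.45), against 12 and 2 with library totals alone. HOXC13, a hair and nail factor, fell from 102 to 67.4 CPM. Among 11 retinoid genes 6 fell and 1 rose (median -0.26). ALDH1A3, which makes retinoic acid, stood at 1345, 1335 and 1354 CPM in control and at 555, 543 and 530.1 CPM in melanosome libraries. CYP26B1, which breaks retinoic acid down, rose from 7.22 to 11.7 CPM.

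Feedback genes of the MAP kinase cascade held some of the steepest rises. ETV5, an ETS factor induced by ERK signalling, stood at 0.825, 1.67 and 1.51 CPM in control and at 114, 115 and 114 CPM in melanosome libraries (log2 fold change 6.42 ± 0.20 SE, edgeR adjusted p = 2.55e-09). Its relative ETV4 rose from 3.29 to 69.6 CPM. DUSP4, a nuclear phosphatase that switches ERK off, stood at 2.27, 3.26 and 3.07 CPM against 101, 111 and 111 CPM. The whole list did not follow: 6 of 11 expressed members rose and 2 fell (median 0.43), the falls being SPRY1, from 11.6 to 7.95 CPM, and DUSP5, from 35.0 to 25.9 CPM. Of 12 immediate early genes 4 rose and 3 fell: FOSL1 rose from 5.38 to 13.6 CPM, JUND fell from 175 to 111 CPM, and MYC did not pass (266 against 249.5 CPM, edgeR adjusted p = 0.167).

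Aryl hydrocarbon receptor targets diverged. This receptor senses planar aromatic compounds and induces xenobiotic-metabolising enzymes. CYP1B1 stood at 195, 174 and 202 CPM in control and at 34.0, 28.7 and 26.2 CPM in melanosome libraries (log2 fold change -2.68 ± 0.22 SE), and CYP1A1 fell from 213 to 57.4 CPM. The receptor gene AHR itself fell from 66.2 to 28.4 CPM and TIPARP, a feedback enzyme gene, from 288 to 164 CPM. NQO1, which NRF2 also drives, stood at 115, 113 and 119 CPM against 486, 480.0 and 469 CPM, and ALDH3A1 did not pass (338 against 383 CPM, edgeR adjusted p = 0.123). The list had 4 falls (44.4%) and 2 rises (22.2%) among 9 expressed genes. Those shares were near the 38.3% and 24.2% over all expressed genes, so the list as a whole did not stand out. The list's median was -0.15, or -0.02 with the trends of GC content and length subtracted.

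Tubulins and the actin cytoskeleton were higher. Of 11 expressed tubulin genes 9 rose and 1 fell (median 1.12), and the family summed to 1563 to 1600 CPM in control and 3494 to 3813 CPM in melanosome libraries. TUBB2A stood at 1.67, 0.882 and 1.31 CPM in control and at 22.2, 23.7 and 24.6 CPM in melanosome libraries, TUBB4B rose from 456 to 887 CPM and the neuronal TUBB3 from 1.96 to 12.8 CPM. TUBA1A went from 0.901 to 61.9 CPM from a trace. Tubulin genes are near-identical in sequence, so their separate values are uncertain. Within the actin list 12 of 22 rose and 3 fell (median 0.37). ACTB rose from 943 to 1881 CPM, MYH10, the gene of non-muscle myosin IIB, from 15.6 to 59.0 CPM, and FLNA, which crosslinks actin, from 591 to 2142 CPM. Of 25 kinesins 12 rose and 8 fell: the cargo motor gene KIF5B fell from 130.5 to 58.6 CPM and KIF3C rose from 4.71 to 54.6 CPM.

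Genes of cell division rose with few exceptions. Of 25 mitotic genes 23 rose and 1 fell (median 1.69). KIF2C, a microtubule depolymerase of the kinetochore, stood at 15.99, 16.2 and 15.8 CPM in control and at 80.4, 82.1 and 86.8 CPM in melanosome libraries. The faller was CENPE, a very long kinetochore kinesin, from 4.37 to 1.32 CPM. At the replication fork 28 of 33 rose and 1, RFC1, fell (median 0.59), and CDC45 of the replicative helicase rose from 5.92 to 20.1 CPM. Among homologous recombination and Fanconi genes 12 of 15 rose and 1 fell (median 1.00), with RAD54L rising from 3.08 to 12.4 CPM. G1 regulators were less uniform, with 12 of 25 rising and 7 falling (median 0.21). E2F1 rose from 7.09 to 28.8 CPM and the cyclin D1 gene CCND1 from 321 to 481 CPM, while CCND2 fell from 61.8 to 35.5 CPM and the retinoblastoma gene RB1 from 78.9 to 52.1 CPM.

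CDK2 needs a reservation. It stood at 43.6, 44.6 and 45.2 CPM in control and at 247, 250.3 and 255 CPM in melanosome libraries. Its span (chromosome 12, 55966769 to 55972784, GRCh38) lies within that of PMEL (chromosome 12, 55954105 to 55973317) on the opposite strand, over 6016 bases, and PMEL went from 3.20 to 2109 CPM. Libraries were strand-specific per the labels' protocols, but whether counting used the strand is not given in the sources used here, so reads of the overlapping genes may not have been told apart. The same holds for CTNNB1 with ULK4, MYH10 with NDEL1, ERAP1 with CAST, CYGB with PRCD, CCDC146 with GSAP, RAD54L with LRRC41, GPX2 with CHURC1, RPS27L with LACTB and SLC16A6 with ARSG.

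Replication-dependent histone genes went against the other genes of S phase. Of 26 expressed members 17 fell and 0 rose (median -0.70). H3C6 stood at 9.83, 10.9 and 9.05 CPM in control and at 2.33, 2.30 and 2.37 CPM in melanosome libraries, and H2BC12 fell from 86.5 to 53.9 CPM. Most mRNAs of these genes end in a stem-loop without a poly(A) tail, and the libraries were made from poly(A) RNA, so the counts cover mainly polyadenylated forms. The genes are also close copies of each other.

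Interferon-stimulated genes split within the list. They are antiviral genes that type I interferon switches on through the factor ISGF3, which binds an element called ISRE. Promoters of the strongest riser, IFI27, of IFI6 and of the strongest faller, SAMD9, are shown because the element's letters stand before genes of either direction. Each run holds the 250 bases before the RefSeq start on GRCh38.p14, 5′ to 3′ on the gene's strand, with matches to the ISRE core (GAAA, any 2 bases, GAAA) or its reverse complement (TTTC, any 2 bases, TTTC) in capitals.
IFI27, chr14:94110486-94110735, plus strand: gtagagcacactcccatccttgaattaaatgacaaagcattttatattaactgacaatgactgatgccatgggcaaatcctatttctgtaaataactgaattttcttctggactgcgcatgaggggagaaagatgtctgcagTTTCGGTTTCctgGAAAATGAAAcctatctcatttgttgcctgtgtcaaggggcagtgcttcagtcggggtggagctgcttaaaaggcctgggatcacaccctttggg
IFI6, chr1:27672193-27672442, minus strand: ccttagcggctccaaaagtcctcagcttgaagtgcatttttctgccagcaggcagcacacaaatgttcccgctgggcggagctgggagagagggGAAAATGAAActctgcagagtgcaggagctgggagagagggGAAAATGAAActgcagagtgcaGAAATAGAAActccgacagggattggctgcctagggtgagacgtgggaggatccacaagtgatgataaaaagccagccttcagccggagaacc
SAMD9, chr7:93117980-93118229, minus strand: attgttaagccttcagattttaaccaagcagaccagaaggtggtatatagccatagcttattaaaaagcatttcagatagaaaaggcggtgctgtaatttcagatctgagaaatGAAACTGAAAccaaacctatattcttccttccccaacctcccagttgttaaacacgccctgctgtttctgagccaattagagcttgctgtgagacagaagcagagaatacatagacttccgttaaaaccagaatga
The matches start 108 and 95 bases before the start of IFI27, 156, 115 and 93 bases before that of IFI6 and 136 bases before that of SAMD9. Over all 35116 windows of this length 3.02% hold a match on either strand. Of the list's expressed members with a window, 8 of 11 that rose, 2 of 6 that fell and 4 of 11 that were not called hold one. A match describes the letters and is not shown to be a bound site.

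IFI27 stood at 4.40, 4.16 and 4.48 CPM in control and at 86.4, 103 and 90.6 CPM in melanosome libraries, and IFI6 rose from 9.68 to 181 CPM. SAMD9, an antiviral restriction factor, stood at 176, 178 and 176 CPM against 50.5, 43.7 and 38.0 CPM (log2 fold change -2.001 ± 0.24 SE, edgeR adjusted p = 4.84e-05). The groups were apart for all 3, upward for IFI27 and IFI6 and downward for SAMD9. Of 35 expressed members 16 rose and 7 fell (median 0.32). OAS3, which makes the activator of RNase L, rose from 82.7 to 227 CPM and ISG15, a ubiquitin-like modifier, from 11.1 to 32.2 CPM, while IFIT2 fell from 71.4 to 45.6 CPM and SAMD9L from 29.4 to 10.4 CPM. IFITM3, which blocks viral entry, did not pass (528 against 592 CPM, edgeR adjusted p = 0.136). The interferon genes IFNB1 and IFNK were at 0 in all 6 libraries. Of 6 expressed receptor genes 3 fell and 0 rose, among them IFNAR1, from 44.8 to 28.2 CPM.

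Class II antigen presentation and surface defence genes expressed in control were lower. Of 8 expressed MHC class II genes 7 fell and 0 rose (median -0.89). The 2 trace genes of that list both rose, beside 741 of all 1768 tested trace genes. CD74, the invariant chain gene, stood at 38.2, 40.9 and 36.0 CPM in control and 9.47, 8.77 and 10.7 CPM in melanosome libraries. Of 15 class I genes 5 rose and 5 fell, against 8 and 3 with library totals alone. ERAP1, which trims peptides for class I molecules, fell from 153 to 73.1 CPM. Among 11 expressed antimicrobial and secretory defence genes 10 fell and 0 rose (median -2.09). DMBT1, a mucosal pattern receptor, stood at 21.0, 21.8 and 19.4 CPM in control and at 1.65, 2.11 and 2.03 CPM in melanosome libraries. OLFM4, a secreted glycoprotein gene, fell from 45.2 to 9.01 CPM, the elastase inhibitor gene PI3 from 10.4 to 2.24 CPM and the peptidoglycan receptor gene PGLYRP4 from 29.5 to 6.92 CPM. LCN2, which withholds iron from bacteria, did not pass (180.1 against 159.9 CPM, edgeR adjusted p = 0.259). Of 6 expressed IL-1 family genes 3 rose and 2 fell: IL1B stood at 22.6, 23.7 and 20.9 CPM against 60.4, 58.8 and 60.7 CPM, its antagonist IL1RN rose from 25.9 to 66.5 CPM, and IL18 and the receptor gene IL1RAP fell from 132 to 89.3 CPM and from 115 to 63.9 CPM. Of 13 NF-kB targets 6 rose and 3 fell. TNFAIP3, which encodes the NF-kB inhibitor A20, rose from 6.52 to 48.5 CPM, while TNFAIP2 fell from 2340.1 to 1169 CPM.

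Genes of lipid mediators went in both directions. PTGES, which makes prostaglandin E2, stood at 1743, 1794 and 1752 CPM in control and 865, 918 and 934 CPM in melanosome libraries, and HPGD, which degrades it, fell from 176 to 58.5 CPM. PTGS1 rose from 21.99 to 44.5 CPM and PTGS2 fell from 23.4 to 17.9 CPM. Of 12 expressed eicosanoid genes 6 fell and 2 rose, against 4 and 4 with library totals alone. Their median was -0.24, or -0.004 with the trends of GC content and length subtracted. In the complement and plasminogen list, where 6 of 14 rose and 5 fell, the central complement gene C3 fell from 568 to 231 CPM.

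Genes of amino acid supply, glycolysis and metal binding were higher on balance. Of 20 amino acid genes 13 rose and 3 fell (median 0.38). SLC1A4, an exchanger of neutral amino acids, stood at 7.81, 9.65 and 9.15 CPM in control and at 231, 238 and 240.3 CPM in melanosome libraries (log2 fold change 4.74 ± 0.14 SE). PSAT1 of serine synthesis rose from 37.5 to 132 CPM, while SLC38A2, a glutamine transporter gene, fell from 570.0 to 283 CPM. Among 22 glycolysis genes 16 rose and 1 fell (median 0.49), the neuronal enolase gene ENO2 rising from 18.3 to 99.995 CPM, GAPDH not passing (7699.8 against 8799.9 CPM, edgeR adjusted p = 0.145) and PFKFB3 falling from 237 to 155 CPM. Metallothioneins and zinc transporters rose in 6 of 10 and fell in 0, and MT2A stood at 333, 325 and 331 CPM against 629, 652 and 661 CPM. In cholesterol synthesis 13 of 24 rose and 4 fell (median 0.29), as MSMO1 did from 81.8 to 152 CPM and SC5D from 104 to 48.1 CPM. Of 24 NRF2 and glutathione genes 14 rose and 5 fell (median 0.30). NFE2L2, the gene of NRF2 itself, was among the falls, from 134 to 82.6 CPM, as was the glutathione peroxidase gene GPX2, from 341 to 204 CPM.

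Giant coiled-coil proteins and large chromatin regulators were lower. All 19 giant coiled-coil Golgi and centrosome proteins fell (median -1.62). AKAP9, a scaffold of Golgi and centrosome, stood at 31.4, 30.9 and 30.3 CPM in control and at 4.92, 5.11 and 4.64 CPM in melanosome libraries (log2 fold change -2.66 ± 0.25 SE). GOLGB1, the gene of giantin, fell from 93.7 to 27.0 CPM and ROCK1, a kinase that contracts actomyosin, from 62.1 to 19.6 CPM. Their transcripts had a median length of 9484 bases and a median GC content of 39.7%, and with the smooth trends of GC content and length over expressed genes subtracted their median log2 change was -1.05. Of 23 large chromatin regulators 22 fell and 0 rose, with a median of -0.72, or -0.36 with those trends subtracted. ARID4A fell from 16.8 to 3.805 CPM and ATRX, a heterochromatin remodeller gene, from 86.3 to 20.6 CPM. Of 354 expressed ZNF genes 169 fell and 21 rose (median -0.32, or -0.14 with the trends subtracted), ZNF33A falling from 18.1 to 5.56 CPM and ZNF697 rising from 9.16 to 29.2 CPM.

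Genes of protein synthesis differed by group. Of 82 cytosolic ribosomal protein genes 77 fell and 3 rose (median -0.59), and the risers were the variant copies RPS27L, from 5.47 to 13.6 CPM, RPL39L, from 29.03 to 45.7 CPM, and RPL26L1, from 20.7 to 24.6 CPM. Nuclear genes of the mitochondrial ribosome went the other way, with 34 of 78 rising and 9 falling (median 0.19), MRPL24 from 33.3 to 70.6 CPM. Of 20 cytosolic tRNA synthetase genes, which load amino acids onto tRNA, 8 rose and 3 fell (median 0.12), VARS1 rising from 37.6 to 96.2 CPM and NARS1 falling from 143 to 105.1 CPM. Reads of ribosomal protein genes can be shared with pseudogenes, which leaves single values uncertain. Of 26 splicing factor genes 13 fell and 3 rose, whereas with library totals alone 3 fell and 9 rose. Their median was -0.12, or 0.32 with the trends of GC content and length subtracted. SRSF5, a splicing factor gene of that list, fell from 67.9 to 35.4 CPM.

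Genes absent from control are described apart. They passed the filter on low counts only through melanosome or glabridin libraries, so they had to be higher in some of those. Of the 5912 such genes 292 averaged at least 1 CPM in melanosome libraries, 66 at least 10 CPM and 8 at least 100 CPM. The 12 with the highest deposited TPM, a level that compares genes per length, include the pigment genes GPR143, TYRP1, TYR, SOX10 and TRPM1. The remainder are described by other roles, and whether pigment cells transcribe them too was not tested. TMEM163, a zinc transporter gene, had 2, 0 and 2 control counts and 170.0, 162 and 157 TPM in the melanosome libraries. PDK4, which encodes a kinase that shuts pyruvate dehydrogenase, had 0 control counts and 116, 93.3 and 86.7 TPM, and was at least 5123-fold higher in CPM against a floor of 3 counts over the control group. PCSK1N, the gene of the neuroendocrine protein proSAAS, stood at 76.8, 77.6 and 76.4 TPM. All of its control libraries were at 0, as were those of A2M and GYPC. A2M, the gene of a protease-trapping plasma protein, stood at 76.8, 75.1 and 73.8 TPM and GYPC, a membrane anchor of the red cell skeleton, at 71.9, 73.8 and 74.8 TPM. SLC16A6, a carrier gene, had 1 control count and 84.0, 70.2 and 65.7 TPM. BIRC7, an apoptosis inhibitor gene, had 2 control counts and 68.7, 71.8 and 74.9 TPM. Their CPM ratios to control had wide counting intervals, 2325 to 511733 for SLC16A6 and 674 to 20133 for BIRC7 (exact 95%, counting error only).

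**Figure D5:**
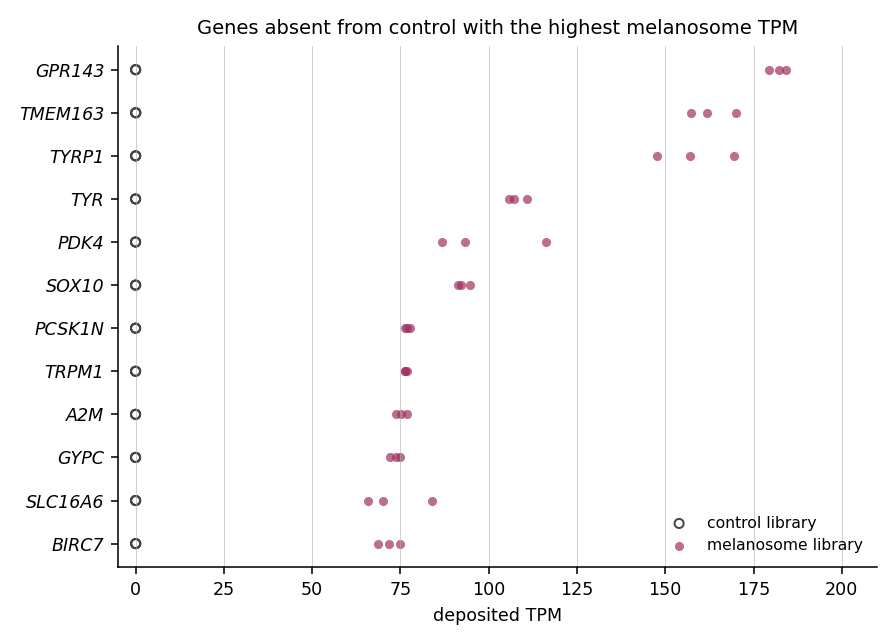
Deposited TPM of the 12 genes with the highest melanosome level among those absent from control, with 1 point per library (3 control, 3 melanosome). Control points lie at or next to 0, and GPR143 is highest, with a melanosome mean of 182 TPM.

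Some absent and trace genes belong to families that control cells transcribed in part. Over all absent genes 292 of 5912 reached 1 CPM in melanosome libraries, and the family counts below stand beside that share. Of 102 solute carrier genes absent from control 15 reached 1 CPM in melanosome libraries, while 47 had 0 counts there. SLC2A10, a sugar carrier gene, reached 12.0 CPM. Of 62 cancer-testis antigen genes, which healthy tissue outside the germ line rarely transcribes, 57 were absent from control and 44 of these had 0 counts in melanosome libraries. PRAME was the 1 of them that reached 1 CPM, at 59.5 CPM, and the trace gene MAGEA12 went from 0.0784 to 13.9 CPM. The axonal motor gene KIF1A was absent and reached 12.5 CPM. HOXB9 went from 0.0301 to 6.12 CPM, while 0 of the 20 expressed HOX genes rose. MERTK, a receptor of the phagocytic TAM family, went from 0.0798 to 22.8 CPM, and the glucose carrier gene SLC2A3 from 0.568 to 46.7 CPM. These genes were higher in the libraries where melanocyte markers were higher, and their cells of origin were not tested.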

How the data were processed

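The authors deposited gene counts as whole numbers; per the file headers TPM and FPKM values go with them. The counts were tested, and the deposited TPM served to compare genes per length. Per the submitters' processing notes the build was hg38; aligner, counting program, strand use and annotation were not given in the sources used here. Positions come from GENCODE release 29 on GRCh38, and promoters from RefSeq. Counts of all 9 libraries entered 1 edgeR 4.0.16 fit in R 4.3.3 (TMM factors, filterByExpr by group, no replicate block), and melanosome was set against control with Benjamini-Hochberg adjustment, called under 0.05. Standard errors were derived from the F statistic. The script was tested on simulated counts. No pairing by replicate number was seen: correlations of same-numbered deviations were 0.0117, 0.00963 and -0.0554. Those of differently numbered ones ran from -0.0759 to 0.0689. With 3 libraries a group such values cannot show that same-numbered libraries shared no batch. Among counts of 1 to 49 over 70% were even in control, so intervals from counts may be too narrow.

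The members and lists were chosen with earlier results of these data known. Genes were named by rule: the 12 strongest rises and falls of called expressed genes with libraries apart, the 12 absent genes with the highest melanosome TPM, each list's largest called rise and fall and its member with the highest control TPM, and KRT5, KRT14 and TP63. Other members are examples chosen after their values were seen, as were the promoters of IFI6 and SAMD9; the promoter of CYP1B1 is not used here. Some list members are counted but not reported here by name. Alternatives were other scalings, DESeq2 1.42.0, fits without a filter, against a fold of 1.2, of 2 groups, with a replicate block or without each library, other limits for expressed and absent genes, and GC and length trends subtracted.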

Additional observations from a re-analysis of the deposited data

How the results depend on the processing

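Against a fold of 1.2, 2942 of all tested genes fell, and of genes expressed in control 4603 were called, 1782 rising and 2821 falling. With library totals alone 2805 of all tested and 2690 of expressed genes fell, and 509 and 414 fell at least 2-fold (811 and 682 on the TMM scale). With genes called expressed from 5 CPM in control 379 rose at least 2-fold, and from 1 CPM over the 6 libraries 1274. Genes absent from control that reached 1 CPM numbered 172 with 0 control counts and 451 with up to 10 counts a library. Leaving out each library in turn gave 7499 to 9810 called genes, 3663 to 4568 rising and 3753 to 5262 falling, with 1920 to 2071 and 657 to 870 past 2-fold. For expressed genes it gave 6097 to 8279 called, 2386 to 3225 rising and 3619 to 5073 falling, with 665 to 757 and 536 to 752 past 2-fold. With a replicate block 8255 genes were called (3905 rising, 4350 falling), of which 6849 were expressed in control (2630 rising, 4219 falling). The block ended the call of PKP1 and brought that of ZEB1. With library totals alone the log2 changes of HES1, KRT18, KRT7 and MYC, none of them called, turned to 0.0114, 0.0220, 0.0745 and 0.0750. Of the 183 called genes named, 167 kept their call under every fit run. A fit of control and melanosome libraries alone added calls for ALDH3A1, GAPDH, IFITM3, KRT14, KRT8, LCN2 and ZEB1. The causes of these differences were not tested. Depth limited the absent genes, whose control levels rest on 3 counts or fewer a library.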
